A study of Mus musculus with 26 samples.

Results

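The Paneth cell granule genes examined here are Lyz1, Mmp7, Itln1, Ang4, Defa17, Defa24 and Defa30. These genes were chosen by name, with earlier results of these data known, and found in both deposited count tables by their Ensembl identifiers. They are 7 of the 55385 gene identifiers in those tables. RNA came from organoids, small closed epithelial cultures grown in Matrigel from intestinal crypts of C57BL/6 mice, and the libraries were made with a directional kit. All groups shared 1 medium with EGF, Noggin, R-spondin, CHIR-99021, which switches on Wnt signalling, and Y-27632. Vehicle, arachidonic acid (AA, 25 µM) and prostaglandin E2 (PGE2, 50 nM) were each sampled after 1 day and after 3 days, with 3 libraries in each of those 6 groups. Vehicle and AA were also sampled after 6 days, with 4 libraries in each group, which brings the total to 26 libraries in 8 groups. The labels name the second compound as PGE2 in one place and as a dimethyl analogue of it in another, so "PGE2" below stands for either. They do not say which part of the intestine the crypts came from, nor whether replicate libraries came from separate mice or cultures, so each p-value measures only the spread between these libraries.

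Paneth cells sit at the base of small intestinal crypts, between the stem cells, and release granules into the crypt lumen. Their granules carry lysozyme, alpha-defensins and other antimicrobial proteins, and the cells also supply Wnt, Notch and EGF family ligands to neighbouring stem cells. They form in the secretory lineage under Atoh1, and their maturation depends on Wnt signalling and Sox9. Arachidonic acid is an omega-6 fatty acid of membranes and food, from which cyclooxygenases and a synthase make PGE2, a lipid signal that acts through EP receptors. The design asks how these genes behave in organoids given the fatty acid or the prostaglandin over time.

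Libraries of days 1 and 3 held 10088285 to 14615719 counts each, and those of day 6 held 16141385 to 19762827. Expression is given as CPM, counts scaled to a common library size, after TMM normalisation (the trimmed mean of M values) within each table, so levels of day 6 stand on another scale than those of days 1 and 3. No level is adjusted for transcript length, and levels are compared between samples, not between genes. The lowest count of any of the 7 genes in a library was 69, for Ang4 in PGE2 day 3 replicate 1. The 7 Paneth genes were all detected in every group, while the defining markers of fibroblasts and muscle summed to at most 1.37 CPM per library and those of immune cells to at most 7.01 CPM. Mitochondrial ribosomal RNA took 6.74% to 10.3% of counts in the libraries of days 1 and 3 and 0.00305% to 0.266% in those of day 6, and its part in the difference between tables cannot be told apart from that of the day.

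The 3 defensin members are close copies of each other. In the GENCODE vM21 annotation of build GRCm38, Defa30 (chr8:21134642-21135598), Defa17 (chr8:21655780-21656735) and Defa24 (chr8:21734494-21735471) are 2-exon genes within 601 kb of the forward strand of chromosome 8. Their longest annotated transcripts were 95.5% identical between Defa17 and Defa30, 92.9% between Defa24 and Defa30 and 90.5% between Defa17 and Defa24. Of the 50-base windows of the Defa17 transcript, 92% also occurred in transcripts of other genes, against 52.4% for Defa30 and 28.1% for Defa24. How the counting treated reads that match several genes is not given, so the split of reads between Defa rows is uncertain. Each defensin result is therefore set beside the sum over all 39 rows whose symbol starts with Defa, of which 26 held any count. Among the other members, 16.1% of Lyz1 windows occurred in Lyz2, the lysozyme of macrophages, which stayed below the filter on low counts in both tables. Shared windows made up 4.7% for Ang4, 1.01% for Itln1 and 0% for Mmp7. Outside chromosome 8, the same annotation places Lyz1 at chr10:117287797-117292868, Mmp7 at chr9:7692090-7699585, Itln1 at chr1:171518122-171535294 and Ang4 at chr14:51763878-51773590.

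Sequences upstream of the start were read for the 5 members found in RefSeq's promoter table for GRCm38.p6, which did not include Defa17 and Defa24. Windows of 3 genes are shown because their values went different ways under PGE2 at day 1: Defa30 rose, Lyz1 was not called and Itln1 fell. Each run is the 250 bases before RefSeq's start, 5′ to 3′ on the gene's strand, and capitals mark matches to the motifs searched. RefSeq's start of Defa30 lies a few bases downstream of the GENCODE one, so the last bases of its run fall inside the gene as placed above.
Defa30, chr8:21134400-21134649, forward strand: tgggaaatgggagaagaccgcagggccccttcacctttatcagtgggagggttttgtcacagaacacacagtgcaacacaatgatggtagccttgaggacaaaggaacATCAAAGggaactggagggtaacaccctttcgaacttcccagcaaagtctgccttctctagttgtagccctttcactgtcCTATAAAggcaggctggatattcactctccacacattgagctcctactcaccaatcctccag
Lyz1, chr10:117292869-117293118, reverse strand: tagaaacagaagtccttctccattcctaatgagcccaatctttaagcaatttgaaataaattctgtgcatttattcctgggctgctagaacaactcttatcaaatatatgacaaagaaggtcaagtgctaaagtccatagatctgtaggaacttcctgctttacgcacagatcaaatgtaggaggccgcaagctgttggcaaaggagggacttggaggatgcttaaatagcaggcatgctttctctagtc
Itln1, chr1:171535295-171535544, reverse strand: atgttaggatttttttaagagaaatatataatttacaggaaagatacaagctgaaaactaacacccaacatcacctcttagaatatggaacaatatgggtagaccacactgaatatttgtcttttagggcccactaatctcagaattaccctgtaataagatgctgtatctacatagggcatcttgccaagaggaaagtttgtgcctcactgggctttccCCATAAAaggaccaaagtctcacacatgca
Motifs of 4 kinds were searched on both strands: CTTTGAA or CTTTGAT of TCF/LEF factors, which act in Wnt signalling, CAGNTG of Atoh1 and related factors, TGACG of cAMP-responsive factors, and TTTATNG of CDX factors, whose reverse complement overlaps the letters of many TATA boxes. The Defa30 window held a TCF/LEF match starting 142 bases before the start and a CDX match starting 62 bases before it. The Itln1 window held 1 CDX match, starting 30 bases before the start, and the Lyz1 window held none of the 4 kinds. Ang4 held 2 matches to CAGNTG and 1 to TGACG, and the first of 2 Mmp7 promoters in the table held 1 CDX match. The second, for a start further downstream, held 1 TCF/LEF match and 1 CAGNTG match. That window lies inside the gene as placed above, and the bases checked just after its start occurred in no annotated Mmp7 transcript. Among all 32851 promoter windows of this length, 7.48% held a TCF/LEF match, 44.8% a CAGNTG match, 17.8% a TGACG match and 9.81% a CDX match. A match describes the letters and shows no binding.

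**Figure D1:**
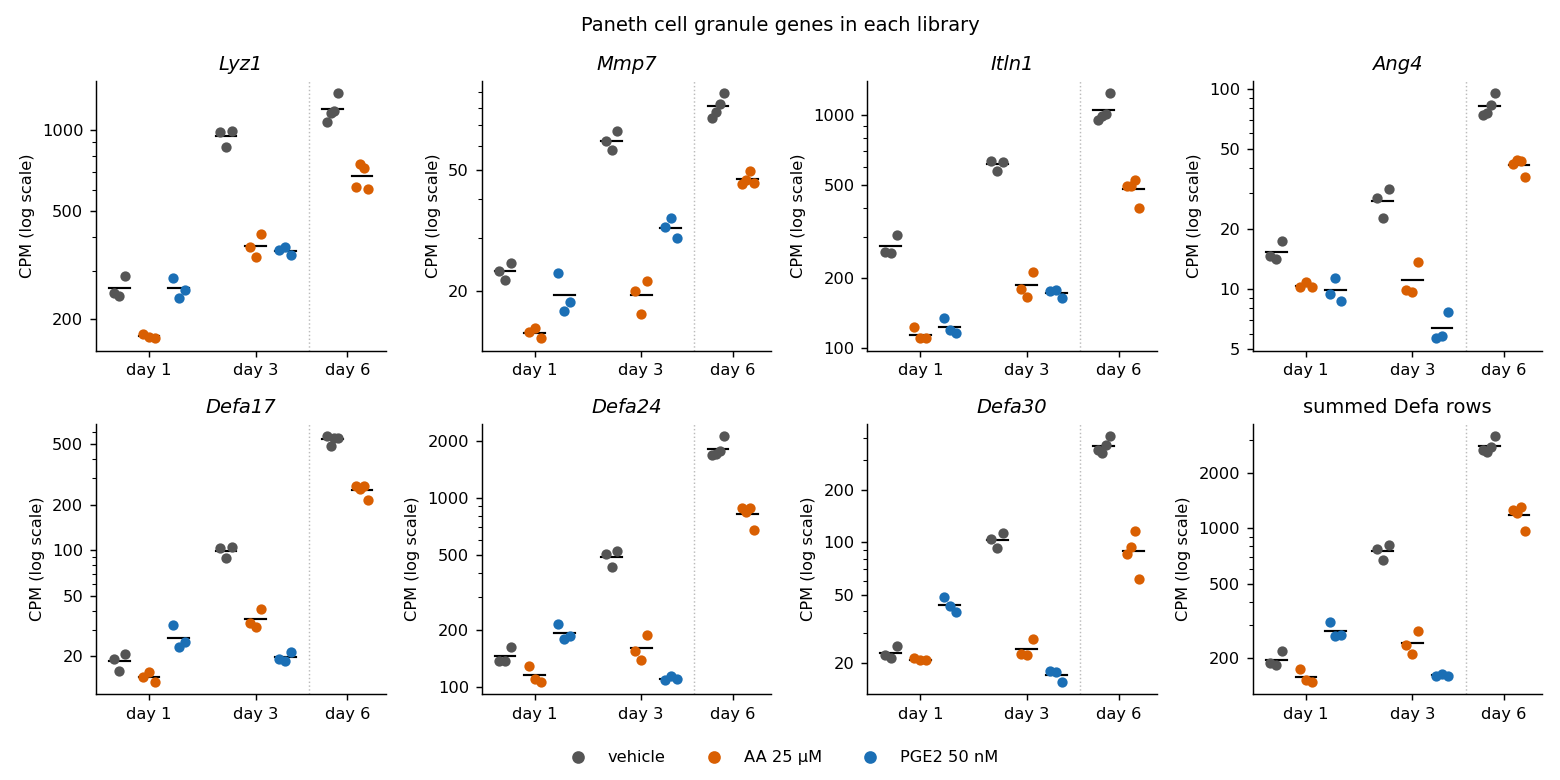
Expression of each Paneth granule gene, and of all Defa rows summed, in every library (CPM on a log axis), by day and treatment; points are libraries, black bars are group means, and the dotted line parts the day 6 table, which was scaled separately. Vehicle at day 3 is the highest group of days 1 and 3 in all panels, and all 4 AA libraries of day 6 lie below all 4 vehicle libraries in all panels.

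In vehicle-treated organoids all 7 genes rose between day 1 and day 3, a comparison in which 40.3% of all 14850 genes tested were called and 19.8% were called higher. Libraries of the 2 days did not overlap for any of the 7, nor for 47.5% of all genes. Fewer cells of a type and less RNA per cell cannot be told apart in these bulk libraries, here and in every result below. Lyz1, the lysozyme that cuts bacterial cell walls, was at 248, 242 and 287 CPM in the vehicle libraries of day 1 and at 984, 867 and 988 CPM in those of day 3. Every day 3 library lay above every day 1 library, a 3.65-fold rise (log2 fold change 1.87 ± 0.08, SE, edgeR adjusted p = 9.5e-14). Mmp7, the matrix metalloprotease that cuts mouse alpha-defensin precursors into their active form, went from 23.3, 21.7 and 24.8 CPM to 62.0, 58.3 and 67.0 CPM. Itln1, a lectin that binds microbial glycans, went from 258, 257 and 307 CPM to 636, 575 and 628 CPM. Both genes also separated the days without overlap, by 1.42 ± 0.08 and 1.16 ± 0.08 on the log2 scale (edgeR adjusted p = 1.9e-13 and 6.3e-09).

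Ang4, an angiogenin-family RNase with antimicrobial activity, had the smallest rise of the 7, from 14.6, 14.1 and 17.3 CPM to 28.6, 22.6 and 31.7 CPM (0.85 ± 0.12, edgeR adjusted p = 8.6e-06). The 3 defensins, peptides that damage bacterial membranes, had larger fitted rises in the same comparison. Defa17 was at 19.1, 16.1 and 20.7 CPM on day 1 and at 104, 89.5 and 105 CPM on day 3, a 5.33-fold rise (2.41 ± 0.11, edgeR adjusted p = 9.2e-12). Defa24 went from 138, 137 and 163 CPM to 502, 432 and 525 CPM, and Defa30 from 22.5, 21.4 and 25.1 CPM to 105, 92.5 and 114 CPM. Their log2 fold changes were 1.74 ± 0.12 and 2.18 ± 0.09 (edgeR adjusted p = 5.7e-08 and 1.7e-15), and no library of one day reached the range of the other. The summed Defa rows rose by 1.96 ± 0.11 on the log2 scale, from 195 ± 18.5 to 756 ± 73.8 CPM (mean ± SD, n = 3 libraries each; edgeR adjusted p = 4.7e-09).

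AA-treated organoids rose less over the same days, and PGE2-treated ones split by gene. Under AA, 5 of the 7 genes rose between day 1 and day 3, where 36.5% of all genes were called and 19.2% were called higher. Lyz1 rose by 1.12 ± 0.08, Mmp7 by 0.43 ± 0.10, Itln1 by 0.71 ± 0.09, Defa17 by 1.27 ± 0.13 and Defa24 by 0.48 ± 0.12 on the log2 scale (edgeR adjusted p from 1.4e-10 to 0.0059). Ang4 at 0.10 ± 0.15 (edgeR adjusted p = 0.65) and Defa30 at 0.21 ± 0.10 (adjusted p = 0.11) did not pass. Under PGE2, 3 genes rose and 4 fell between these days, where 47.5% of all genes were called, 24.5% higher and 23.0% lower. Those that rose were Lyz1 (0.46 ± 0.08), Mmp7 (0.71 ± 0.09) and Itln1 (0.48 ± 0.09), each past the edgeR threshold (adjusted p of 3.0e-05, 2.3e-07 and 0.00022). Those that fell were Ang4 (-0.60 ± 0.17), Defa17 (-0.44 ± 0.13), Defa24 (-0.81 ± 0.12) and Defa30 (-1.34 ± 0.10), with edgeR adjusted p of 0.0057, 0.0092, 6.8e-05 and 1.4e-11. The Defa17 call was lost without PGE2 day 1 replicate 1 (-0.27, adjusted p = 0.080). Summed over all Defa rows, counts moved by 0.61 ± 0.11 under AA and by -0.81 ± 0.11 under PGE2 (edgeR adjusted p = 0.00048 and 2.4e-05).

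**Figure D2:**
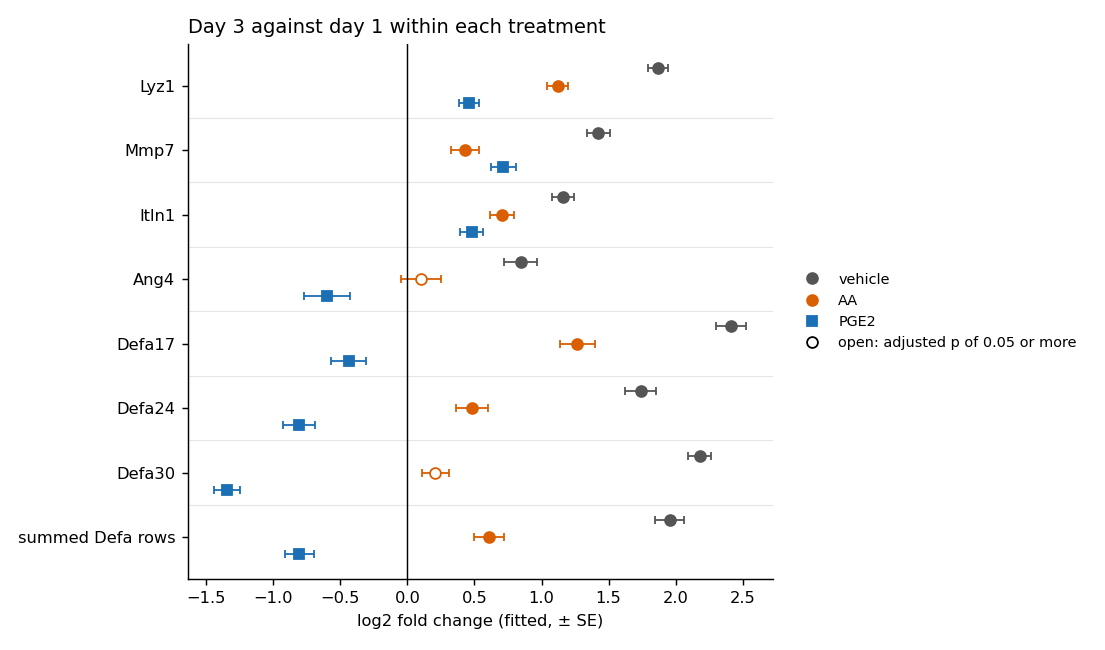
Fitted log2 fold change (± SE) of day 3 against day 1 for each gene and for the summed Defa rows, within vehicle, AA and PGE2 (3 libraries per group); open symbols did not pass the adjusted p threshold of 0.05. All vehicle points lie right of 0, while under PGE2 Ang4, the 3 defensins and their sum lie left of 0.

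At day 1 of AA, 5 of the 7 genes were lower than in vehicle, where 41.7% of all genes were called and 22.2% were called lower. Groups did not overlap for 6 of the 7 or for 53.6% of all genes. Lyz1 was at 176, 171 and 169 CPM against 242 to 287 CPM in vehicle, 1.51-fold lower (-0.59 ± 0.08, edgeR adjusted p = 1.5e-06). Itln1 was at 123, 110 and 110 CPM against 257 to 307 CPM, the widest gap of the 7 at this day, 2.40-fold (-1.26 ± 0.09, edgeR adjusted p = 1.1e-09). No AA library of either gene reached the vehicle range. Mmp7, at 14.7, 15.1 and 14.0 CPM, and Ang4, at 10.2, 10.8 and 10.2 CPM, also lay below every vehicle library, by -0.67 ± 0.10 and -0.56 ± 0.14 on the log2 scale (edgeR adjusted p = 2.4e-06 and 0.0023).

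The defensins had smaller fitted differences at this day. Defa24 was at 129, 110 and 107 CPM against 137 to 163 CPM and passed the test (-0.34 ± 0.12, edgeR adjusted p = 0.038). That call was lost without vehicle day 1 replicate 3 (-0.25, adjusted p = 0.17), AA day 1 replicate 2 (-0.31, adjusted p = 0.11) or AA day 1 replicate 3 (-0.28, adjusted p = 0.12), with the low-count filter dropped or made stricter (adjusted p = 0.12 and 0.052), and without rRNA-like and mitochondrial genes (adjusted p = 0.066). Defa17, at 14.5, 15.8 and 13.6 CPM against 16.1 to 20.7 CPM, lay below every vehicle library but missed the threshold (-0.35 ± 0.14, edgeR adjusted p = 0.054). It passed without vehicle day 1 replicate 2 (-0.45, adjusted p = 0.023) and under 5 of the other alternatives, with log2 fold changes from -0.36 to -0.32. These were no low-count filter (adjusted p = 0.0014), a fit of only the groups compared (0.0065), the replicate block (0.015), DESeq2 (0.027) and total counts alone (0.030). Defa30, at 21.5, 20.8 and 20.8 CPM, overlapped the vehicle range of 21.4 to 25.1 CPM and did not pass (-0.12 ± 0.10, edgeR adjusted p = 0.34). The summed Defa rows gave -0.30 ± 0.11 (edgeR adjusted p = 0.039), a call that was lost without any 1 of 4 libraries: vehicle replicate 1 (-0.34, adjusted p = 0.051), vehicle replicate 3 (-0.22, adjusted p = 0.18), AA replicate 2 (-0.28, adjusted p = 0.10) or AA replicate 3 (-0.26, adjusted p = 0.12).

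After 3 days of AA all 7 genes were lower than in vehicle, where 41.3% of all genes were called and 20.1% were called lower. Groups did not overlap for any of the 7, nor for 45.4% of all genes. Lyz1 was at 368, 338 and 412 CPM against 867 to 988 CPM, 2.54-fold lower (-1.34 ± 0.07, edgeR adjusted p = 1.8e-12). Mmp7, the defensin-activating protease, was at 20.0, 16.9 and 21.6 CPM against 58.3 to 67.0 CPM, 3.17-fold lower (-1.66 ± 0.09, edgeR adjusted p = 1.5e-15). Itln1 fell to 180, 166 and 213 CPM (-1.72 ± 0.09) and Ang4 to 9.90, 9.67 and 13.7 CPM (-1.31 ± 0.13), with edgeR adjusted p of 9.9e-12 and 1.7e-08. AA day 3 replicate 3 was the highest AA library for all 7 genes.

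Defa30 was furthest below vehicle of the 7, at 22.8, 22.3 and 27.6 CPM against 92.5 to 114 CPM, 4.28-fold lower (-2.10 ± 0.09, edgeR adjusted p = 1.7e-16). Defa17 was at 33.3, 31.0 and 40.8 CPM (-1.50 ± 0.11) and Defa24 at 156, 139 and 188 CPM (-1.59 ± 0.12), with edgeR adjusted p of 7.0e-10 and 5.5e-08. The summed Defa rows were 3.14-fold lower (-1.65 ± 0.11, edgeR adjusted p = 8.8e-09). This sum does not depend on how the counted reads were split between Defa rows. It would still lack reads with several matches if the counting left them out. Over the 7 genes the median log2 fold change was -1.59, beside -0.03 over all genes tested.

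After 6 days of AA all 7 genes were again lower than in vehicle, in a table where 30.7% of all 14663 genes tested were called and 15.5% were called lower. Groups did not overlap for any of the 7, nor for 32.7% of all genes. Lyz1 was at 613, 750, 723 and 604 CPM with AA and at 1067, 1153, 1173 and 1366 CPM with vehicle (-0.82 ± 0.09, edgeR adjusted p = 5.3e-05). Mmp7 was at 45.0, 46.2, 49.7 and 45.4 CPM against 74.2, 77.7, 82.0 and 89.2 CPM (-0.79 ± 0.07, edgeR adjusted p = 7.6e-06). Neither gene had an AA library within the vehicle range. Itln1 was at 495, 496, 528 and 400 CPM against 949, 986, 1006 and 1238 CPM (-1.12 ± 0.10, edgeR adjusted p = 1.2e-05). Ang4 was at 42.2, 44.2, 43.8 and 36.4 CPM against 73.7, 75.9, 82.5 and 94.9 CPM (-0.97 ± 0.09, edgeR adjusted p = 1.3e-05).

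Among the defensins, Defa30 again stood furthest from vehicle at day 6. It was at 85.2, 94.1, 116 and 61.6 CPM with AA and at 341, 328, 366 and 409 CPM with vehicle, 4.04-fold lower (-2.01 ± 0.15, edgeR adjusted p = 4.1e-06). Defa17 was at 267, 254, 267 and 213 CPM against 562, 485, 553 and 549 CPM (-1.10 ± 0.08, edgeR adjusted p = 3.2e-06). Defa24 was at 881, 845, 883 and 679 CPM against 1690, 1704, 1771 and 2107 CPM (-1.15 ± 0.10, edgeR adjusted p = 7.9e-06). AA day 6 replicate 4 was the lowest AA library for all 7 genes but Mmp7. The summed Defa rows were 2.34-fold lower (-1.23 ± 0.09, edgeR adjusted p = 4.6e-06).

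**Figure D3:**
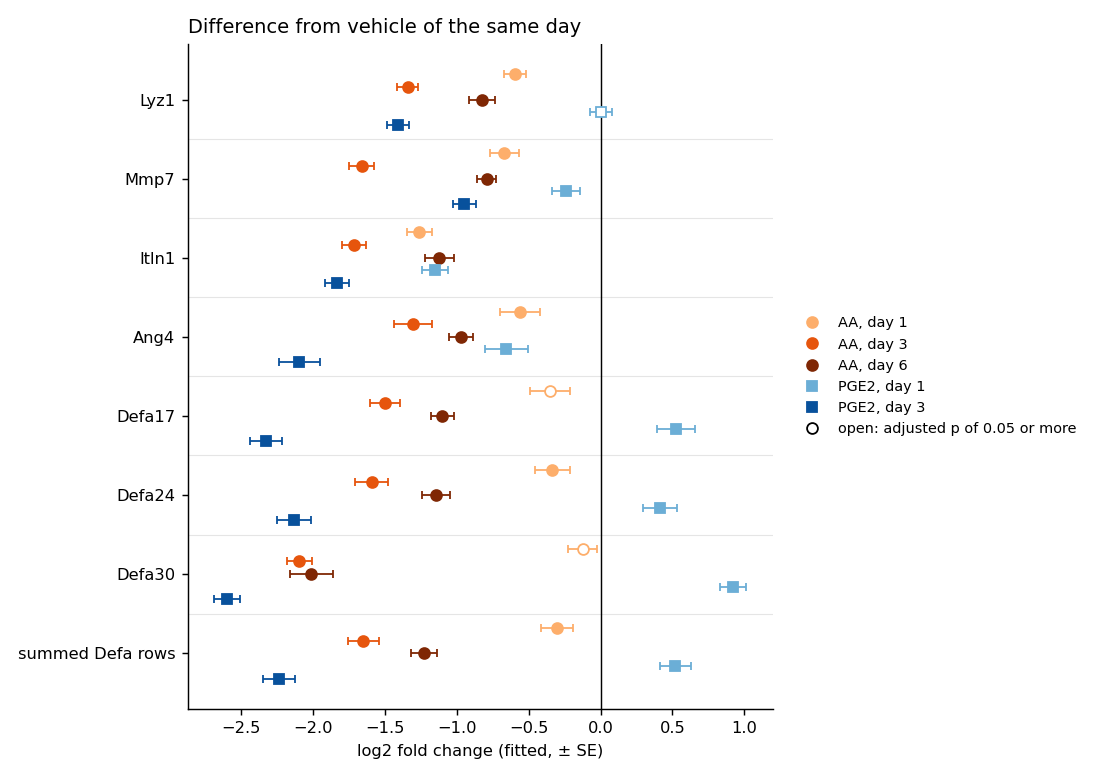
Fitted log2 fold change (± SE) against vehicle of the same day for each gene and for the summed Defa rows, after AA at days 1, 3 and 6 (circles) and PGE2 at days 1 and 3 (squares); open symbols did not pass the adjusted p threshold of 0.05. The day 1 squares of the 3 defensins and their sum lie right of 0, and all symbols of days 3 and 6 lie left of 0.

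The fall with AA was larger at day 3 than at day 1 for all 7 genes when the difference itself was tested, where 18% of all genes were called and 7.95% were called lower. The difference of log2 fold changes was -0.75 ± 0.11 for Lyz1, -0.99 ± 0.13 for Mmp7, -0.45 ± 0.12 for Itln1 and -0.75 ± 0.19 for Ang4 (edgeR adjusted p from 3.2e-06 to 0.014). It was -1.15 ± 0.18 for Defa17, -1.26 ± 0.17 for Defa24, -1.97 ± 0.13 for Defa30 and -1.35 ± 0.15 for the summed Defa rows (edgeR adjusted p from 8.8e-11 to 0.00013). Days 3 and 6 stand in separate tables, so the day and the table cannot be told apart when their responses are compared. The fall was smaller at day 6 than at day 3 for 3 of the 7 genes in a joint fit of both tables, where 19.1% of 15504 genes were called and 8.78% were called higher. These were Lyz1 (0.51 ± 0.12), Mmp7 (0.86 ± 0.12) and Itln1 (0.58 ± 0.14), with edgeR adjusted p of 0.0038, 2.0e-06 and 0.0038. Ang4 (0.32 ± 0.17), Defa17 (0.38 ± 0.14), Defa24 (0.43 ± 0.15) and Defa30 (0.07 ± 0.22) did not pass (edgeR adjusted p = 0.19, 0.060, 0.051 and 0.86). Defa17 and Defa24 passed without vehicle day 3 replicate 2 (adjusted p = 0.043 and 0.037), without AA day 3 replicate 3 (0.015 and 0.014) and without AA day 6 replicate 4 (0.016 and 0.011), and Defa24 alone without vehicle day 6 replicate 4 (0.033). With relative log expression factors, total counts alone, the stricter filter or DESeq2, Defa17 and Defa24 also passed, which makes 5 of the 7 (adjusted p from 0.015 to 0.048). Without the low-count filter Ang4 and Defa17 passed instead, again 5 of the 7 (adjusted p = 0.049 and 0.00079). The summed Defa rows passed narrowly (0.41 ± 0.14, edgeR adjusted p = 0.049), and that call was lost when any of 10 of the 14 libraries was left out (adjusted p from 0.070 to 0.13).

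At day 1 of PGE2 the genes went different ways: the 3 defensins rose, Itln1, Ang4 and Mmp7 fell, and Lyz1 was not called. In this comparison 55.9% of all genes were called, 27.0% higher and 28.9% lower. Groups did not overlap for 5 of the 7 or for 62.8% of all genes. Defa30 was at 48.3, 42.7 and 39.4 CPM against 21.4 to 25.1 CPM in vehicle, 1.90-fold higher (0.92 ± 0.09, edgeR adjusted p = 3.0e-09). Defa17 was at 32.0, 23.0 and 24.7 CPM (0.52 ± 0.13) and Defa24 at 215, 180 and 186 CPM (0.42 ± 0.12), with edgeR adjusted p of 0.0022 and 0.0082. All PGE2 libraries of the 3 defensins lay above all vehicle libraries, and the summed Defa rows were 1.44-fold higher (0.52 ± 0.11, edgeR adjusted p = 0.00082). PGE2 day 1 replicate 1 was the highest PGE2 library for each defensin and for Lyz1, Mmp7 and Itln1.

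Itln1 in the same PGE2 libraries was at 134, 120 and 116 CPM against 257 to 307 CPM, 2.22-fold lower (-1.15 ± 0.09, edgeR adjusted p = 1.8e-09). Ang4 was at 9.45, 11.4 and 8.70 CPM against 14.1 to 17.3 CPM (-0.66 ± 0.15, edgeR adjusted p = 0.00054), and neither gene overlapped with vehicle. Lyz1, at 284, 239 and 255 CPM, lay across the vehicle range of 242 to 287 CPM (0.00 ± 0.08, edgeR adjusted p = 0.98). Mmp7, at 22.9, 17.2 and 18.4 CPM, overlapped the vehicle range of 21.7 to 24.8 CPM and passed narrowly (-0.24 ± 0.10, edgeR adjusted p = 0.039). That call was lost with DESeq2 (adjusted p = 0.065), without rRNA-like and mitochondrial genes (adjusted p = 0.053) and without vehicle day 1 replicate 1 (-0.24, adjusted p = 0.075), vehicle day 1 replicate 3 (-0.19, adjusted p = 0.14), PGE2 day 1 replicate 2 (-0.16, adjusted p = 0.21) or PGE2 day 1 replicate 3 (-0.19, adjusted p = 0.16), while without PGE2 day 1 replicate 1 it was -0.38 (adjusted p = 0.0027).

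By day 3 of PGE2 all 7 genes were lower than in vehicle, where 58.9% of all genes were called and 30.1% were called lower. No PGE2 library reached the vehicle range for any of the 7, nor for 62.7% of all genes. Defa30 was at 18.2, 17.8 and 15.7 CPM against 92.5 to 114 CPM, 6.06-fold lower (-2.60 ± 0.09, edgeR adjusted p = 7.2e-19). Defa17 was at 19.1, 18.7 and 21.4 CPM (-2.33 ± 0.11) and Defa24 at 109, 114 and 110 CPM (-2.13 ± 0.12), with edgeR adjusted p of 7.3e-13 and 1.1e-09. The summed Defa rows were 4.72-fold lower (-2.24 ± 0.11, edgeR adjusted p = 1.2e-10). Ang4 was at 5.67, 5.85 and 7.66 CPM against 22.6 to 31.7 CPM, 4.28-fold lower (-2.10 ± 0.14, edgeR adjusted p = 5.3e-12). Lyz1 was at 359, 367 and 343 CPM (-1.41 ± 0.07) and Itln1 at 175, 177 and 164 CPM (-1.84 ± 0.09), with edgeR adjusted p of 2.5e-13 and 1.3e-12. Mmp7 fell least, to 32.4, 34.8 and 29.8 CPM against 58.3 to 67.0 CPM, 1.93-fold (-0.95 ± 0.08, edgeR adjusted p = 1.7e-11).

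The response to PGE2 at day 3 was below that at day 1 for all 7 genes, where 24.2% of all genes were called and 11.6% were called lower. The difference of log2 fold changes was -3.52 ± 0.13 for Defa30, -2.85 ± 0.17 for Defa17, -2.55 ± 0.17 for Defa24 and -2.76 ± 0.15 for the summed Defa rows (edgeR adjusted p from 1.6e-16 to 5.2e-08). It was -1.41 ± 0.11 for Lyz1, -1.44 ± 0.21 for Ang4, -0.71 ± 0.13 for Mmp7 and -0.68 ± 0.12 for Itln1 (edgeR adjusted p from 1.1e-09 to 0.00037). For the defensins it spans a rise at day 1 and a fall at day 3.

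The AA and PGE2 organoids were also compared directly, at doses that differ (25 µM and 50 nM) and that were each sampled at 1 level only. At day 1 they differed for 5 of the 7 genes, where 27.7% of all genes were called and 16.5% were called lower. Lower with AA than with PGE2 were Lyz1 (-0.60 ± 0.08), Mmp7 (-0.43 ± 0.10), Defa17 (-0.88 ± 0.14), Defa24 (-0.75 ± 0.12) and Defa30 (-1.05 ± 0.09), with edgeR adjusted p from 1.6e-09 to 0.0019. The Mmp7 call was lost without PGE2 day 1 replicate 1 (-0.29, adjusted p = 0.058). Itln1 (-0.11 ± 0.09) and Ang4 (0.09 ± 0.16) did not pass (edgeR adjusted p = 0.42 and 0.72).

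At day 3 the order of the 3 defensins was the opposite: Defa17 (0.83 ± 0.12), Defa24 (0.54 ± 0.12) and Defa30 (0.50 ± 0.10) were higher with AA than with PGE2. Ang4, which had not passed at day 1, was also higher with AA (0.79 ± 0.16; edgeR adjusted p from 2.6e-05 to 0.0027 for these 4 genes), and Mmp7 remained lower with AA (-0.71 ± 0.09, edgeR adjusted p = 3.1e-07). In that comparison 38.5% of all genes were called, 18.1% higher and 20.3% lower. Lyz1 (0.07 ± 0.07) and Itln1 (0.12 ± 0.09) did not pass (edgeR adjusted p = 0.51 and 0.31), though Itln1 passed without the low-count filter (0.16, adjusted p = 0.019). For the summed Defa rows the difference was -0.82 ± 0.11 at day 1 and 0.59 ± 0.11 at day 3 (edgeR adjusted p = 3.7e-05 and 0.00061). The AA and PGE2 comparisons with vehicle share the vehicle libraries of their day.

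Ordered by group means over days 1 and 3, each gene was highest in vehicle at day 3, and the lowest group differed between genes. For Lyz1 the order was vehicle day 3 (946 ± 68.9 CPM, mean ± SD, n = 3 libraries), AA day 3 (373 ± 37.0), PGE2 day 3 (356 ± 11.9), vehicle and PGE2 day 1 (both 259, SD 24.6 and 23.2) and AA day 1 (172 ± 3.57). The AA and PGE2 libraries of day 3 overlapped, as did those of vehicle and PGE2 at day 1. Itln1 ran from vehicle day 3 (613 ± 33.0 CPM) over vehicle day 1 (274 ± 28.6) to AA and PGE2 at day 3 (186 ± 23.7 and 172 ± 6.95) and then at day 1 (114 ± 7.96 and 123 ± 9.62). Within each of those days its AA and PGE2 libraries overlapped. For Mmp7 PGE2 day 3 (32.3 ± 2.47 CPM) came second after vehicle day 3 (62.4 ± 4.36), and AA day 1 was lowest (14.6 ± 0.522). Between them vehicle day 1 (23.2 ± 1.55), AA day 3 (19.5 ± 2.38) and PGE2 day 1 (19.5 ± 3.03) lay close together, PGE2 day 1 overlapping both others.

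The lowest Ang4 group was PGE2 day 3 (6.39 ± 1.10 CPM), below AA day 3 (11.1 ± 2.25), AA day 1 (10.4 ± 0.315) and PGE2 day 1 (9.84 ± 1.38), which overlapped each other. Defa30 in PGE2 day 3 (17.2 ± 1.31 CPM) was likewise below every other group, and PGE2 day 1 (43.4 ± 4.49) was second to vehicle day 3 (104 ± 11.0). Its AA day 3, vehicle day 1 and AA day 1 groups (24.2 ± 2.92, 23.0 ± 1.90 and 21.1 ± 0.420) were neighbours whose libraries overlapped with the next. For Defa24 AA day 1 (115 ± 11.8 CPM) and PGE2 day 3 (111 ± 2.34) overlapped at the bottom of the order. Defa17 was lowest in AA day 1 (14.6 ± 1.11 CPM), below vehicle day 1 (18.7 ± 2.32) and PGE2 day 3 (19.8 ± 1.45), which overlapped.

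The split of reads between defensin rows moved with day and treatment. Defa24 took the largest share of all Defa counts in every group, from 64.4% ± 0.200 in vehicle day 3 to 74.7% ± 0.763 in vehicle day 1 (SD, n = 3 libraries each). The Defa30 share was 12.9% ± 0.262 in vehicle day 6 (12.7% to 13.3%, n = 4) and 7.44% ± 1.17 in AA day 6 (6.33% to 8.95%, n = 4), without overlap. At day 3 it was 13.8% ± 0.242 in vehicle, 10.1% ± 0.473 in AA and 10.8% ± 0.797 in PGE2, and at day 1 it was 11.8% ± 0.248, 13.4% ± 0.815 and 15.6% ± 0.691. So the Defa30 row lost share in both treatments at day 3 and gained share in both at day 1. Defa17 held 9.32% to 9.57% on average in the 3 groups of day 1, 12.4% to 14.6% in those of day 3 and 19.4% to 21.1% in those of day 6. These shares are descriptions of reads whose assignment between paralogs is uncertain and were not tested.

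**Figure D4:**
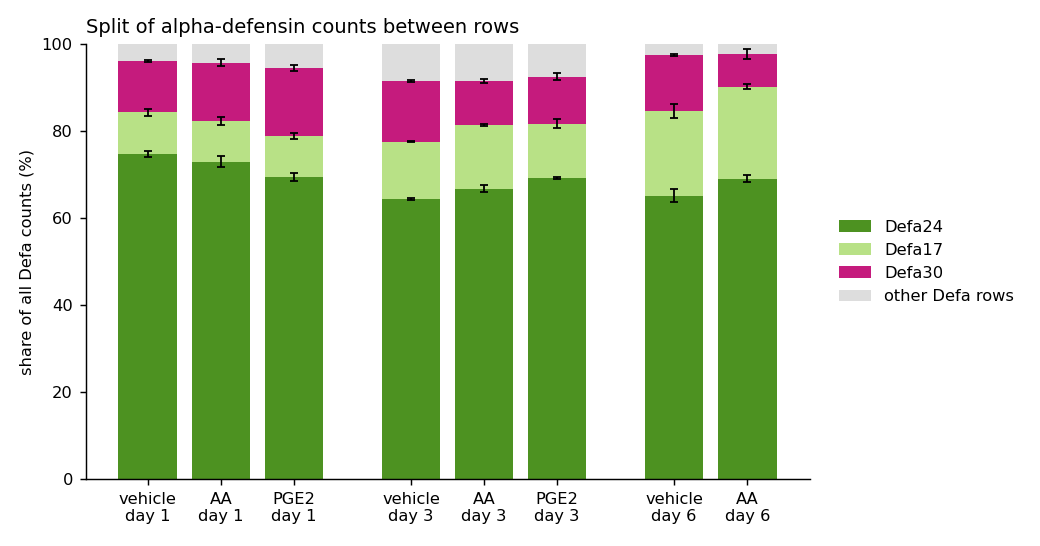
Mean share of all Defa counts taken by the Defa24, Defa17 and Defa30 rows and by the other Defa rows together, as stacked bars from 0 to 100% in each of the 8 groups; error bars are SD over 3 libraries (days 1 and 3) or 4 libraries (day 6). The Defa30 band is 12.9% in vehicle and 7.44% in AA at day 6.

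Other Defa rows held far fewer counts, and 11 of the 36 passed the low-count filter at days 1 and 3, while 13 were at 0 in every library. All of those 13 but Defa33 have symbols starting with Defa-ps, the form used for pseudogenes. Rows that passed only where they were high had to differ, so their counts describe and support nothing. At day 3, 11 of 11 fell with AA and 11 of 11 with PGE2, and at day 6, 10 of 10 fell with AA. At day 1 none of 11 was called with AA by edgeR, and 6 rose and 5 were not called with PGE2. For comparison, 20.1% of all genes were called lower with AA at day 3, 30.1% with PGE2 at day 3 and 15.5% with AA at day 6. At day 1, 41.7% of all genes were called with AA and 27.0% were called higher with PGE2. Defa22 moved by -1.87 ± 0.15 with AA at day 3 and by -2.58 ± 0.17 with PGE2, and Defa3 by -1.22 ± 0.18 and -2.21 ± 0.20. With PGE2 at day 1, Defa22 moved by 0.63 ± 0.21 and Defa3 by 1.64 ± 0.30 (edgeR adjusted p = 0.013 and 2.5e-05).

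Other products linked to Paneth cells did not move as one. Of 14 tested at days 1 and 3, 6 rose and 6 fell with AA at day 3, and 6 rose and 4 fell with PGE2, while 41.3% and 58.9% of all genes were called in these comparisons. Clps, the colipase that assists pancreatic lipase, fell with AA at day 3 (-1.43 ± 0.16) and day 6 (-0.59 ± 0.10), as did Spink4, a secreted protease inhibitor family member also found in goblet cells (-0.93 ± 0.08 and -0.41 ± 0.09; edgeR adjusted p from 4.6e-09 to 0.0045 for these 4 values). Both rose with PGE2 at day 1, by 0.57 ± 0.21 and 0.36 ± 0.09 (edgeR adjusted p = 0.022 and 0.0022). Cd24a, a surface protein high on Paneth cells, fell in all 5 comparisons with vehicle, from -0.19 ± 0.06 with AA at day 6 to -1.05 ± 0.07 with AA at day 3. Guca2b, the peptide uroguanylin, rose in all 5, by 0.94 ± 0.06 with AA at day 3 and 1.26 ± 0.06 with PGE2 at day 3. Reg3b and Reg3g, antimicrobial lectins made by enterocytes as well, were picked after their values were seen: with AA both rose at day 3 (1.60 ± 0.26 and 0.96 ± 0.18) and fell at day 6 (-1.68 ± 0.18 and -0.63 ± 0.10; edgeR adjusted p from 8.7e-06 to 0.00095 for these 4 values).

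Several regulators of the lineage differed between AA and PGE2. Of 15 tested, 0 rose and 7 fell with AA at day 3, against 3 and 7 with PGE2. Counting both directions, these shares were near the 41.3% and 58.9% of all genes called. Called lower alone were 20.1% of all genes with AA and 30.1% with PGE2. Sox9, a transcription factor needed for Paneth cells, fell with AA at day 3 (-0.58 ± 0.06, edgeR adjusted p = 2.1e-08) and was at -0.03 ± 0.06 with PGE2 (adjusted p = 0.73). Atoh1, the factor that starts the secretory lineage, fell with AA at day 1 (-0.78 ± 0.16, edgeR adjusted p = 0.00026) and was at -0.29 ± 0.15 at day 3 (adjusted p = 0.13). With PGE2 it rose by 0.38 ± 0.15 at day 1 and 0.80 ± 0.13 at day 3 (edgeR adjusted p = 0.027 and 4.7e-06). Spdef, a factor of goblet and Paneth maturation, rose with PGE2 by 0.68 ± 0.12 and 1.13 ± 0.10 at the same days (edgeR adjusted p = 1.2e-05 and 3.3e-11). With AA, Spdef fell at day 1 (-0.33 ± 0.13, edgeR adjusted p = 0.044) and was at -0.04 ± 0.11 at day 3 (adjusted p = 0.81). Set against each other at day 3, AA was below PGE2 for Sox9 (-0.55 ± 0.06), Atoh1 (-1.08 ± 0.13) and Spdef (-1.17 ± 0.10), with edgeR adjusted p from 7.5e-11 to 1.3e-07. In that comparison 7 of the 15 regulators were lower and 4 higher with AA, where 38.5% of all genes were called, and among the higher was Fgfr3, an FGF receptor of crypt cells (0.51 ± 0.13, edgeR adjusted p = 0.0021). Gfi1, which acts downstream of Atoh1, fell with AA at days 1 and 3 (-0.70 ± 0.27 and -0.71 ± 0.24, edgeR adjusted p = 0.035 and 0.019). Bhlha15, a factor of secretory cell architecture, fell in all 5 comparisons with vehicle, from -0.22 ± 0.07 with AA at day 6 to -1.39 ± 0.14 with AA at day 1. Against vehicle, Fgfr3 fell at day 3 with AA (-0.86 ± 0.11) and with PGE2 (-1.37 ± 0.12) (edgeR adjusted p = 2.5e-07 and 2e-11).

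Among niche signals, 4 of 8 tested fell and 2 rose with AA at day 3, and 4 fell and 3 rose with PGE2, beside 41.3% and 58.9% of all genes called. Wnt3, the Wnt ligand of Paneth cells, fell at day 3 with AA (-1.19 ± 0.16) and with PGE2 (-1.22 ± 0.16) (edgeR adjusted p = 2.9e-07 and 6.8e-08) and did not pass with AA at day 6 (-0.36 ± 0.20, adjusted p = 0.18). The Notch ligands Dll1 and Dll4 fell at day 3 with AA (-0.82 ± 0.06 and -0.96 ± 0.11) and with PGE2 (-0.93 ± 0.06 and -0.51 ± 0.10). Both also fell at day 1 with AA (-1.02 ± 0.06 and -1.07 ± 0.11) and with PGE2 (-1.76 ± 0.07 and -1.14 ± 0.11). With AA at day 6 they were at -0.14 ± 0.12 and 0.11 ± 0.10 (edgeR adjusted p = 0.41 for each). Another Notch ligand, Jag1, and the EGF receptor ligand Tgfa rose in all 5 comparisons with vehicle. Of 14 tested genes of the secretory pathway, 0 rose and 6 fell with AA at day 3, and 5 rose and 5 fell with PGE2. The AA share was near the 41.3% of all genes called in either direction, while 20.1% were called lower. Rab3d, a GTPase of secretory granules, fell with AA (-0.54 ± 0.07) and with PGE2 (-0.21 ± 0.07), as did Tmed6, a cargo receptor of early secretion (-0.93 ± 0.14 and -1.28 ± 0.15) (edgeR adjusted p from 7.6e-09 to 0.011).

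**Figure D5:**
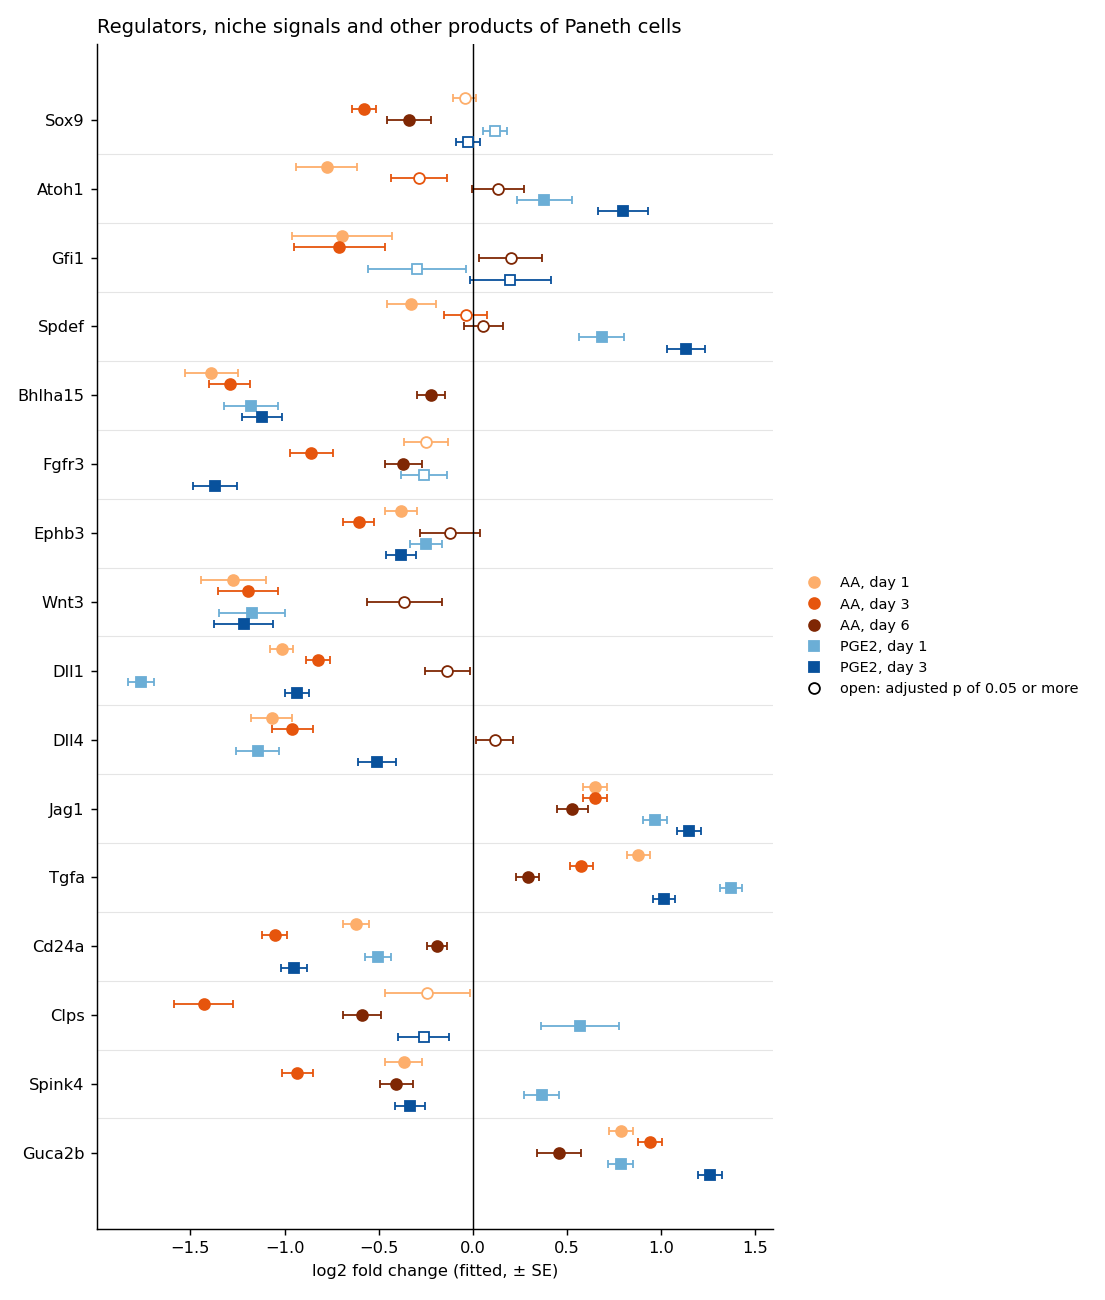
Fitted log2 fold change (± SE) against vehicle of the same day for regulators of the Paneth lineage, niche ligands and other products, with AA at days 1, 3 and 6 (circles) and PGE2 at days 1 and 3 (squares); open symbols did not pass the adjusted p threshold of 0.05. Cd24a and Bhlha15 lie left of 0 and Jag1, Tgfa and Guca2b right of 0 in all 5 comparisons, while Atoh1 and Spdef lie right of 0 with PGE2.

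Markers of the other epithelial cells moved in the same libraries, and their part in the values of the Paneth genes was not tested. In vehicle, 4 of 5 crypt base stem cell markers rose between day 1 and day 3, their sum going from 555 to 591 CPM up to 1786 to 1923 CPM. Among them Olfm4 rose by 3.65 ± 0.10 and Lgr5, the receptor that marks these stem cells, by 2.36 ± 0.09 on the log2 scale (edgeR adjusted p = 5.3e-14 and 2.4e-15). Of 7 tested goblet cell markers, from the other main granule-bearing cell of the epithelium, 5 rose and 1 fell. Of 4 enteroendocrine markers 3 rose, and of 7 enterocyte markers 3 rose and 3 fell. This comparison called 40.3% of all genes, 19.8% of them all being called higher.

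The same lists moved with treatment at day 1, where 55.9% of all genes were called with PGE2 (27.0% higher, 28.9% lower) and 41.7% with AA (22.2% lower). With PGE2, 4 of 5 stem markers fell, to sums of 129 to 143 CPM, and 5 of 7 goblet markers rose, their sum running from 852 to 920 CPM against 719 to 737 CPM in vehicle. Enteroendocrine markers split, 3 rising and 1 falling, as did enterocyte markers, 4 rising and 3 falling. With AA, 4 of 5 stem markers fell, to sums of 246 to 256 CPM, and 6 of 7 enterocyte markers rose. In the same AA libraries 2 goblet markers rose and 4 fell, and 3 enteroendocrine markers rose and 1 fell.

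At day 3 all 7 enterocyte markers rose with AA, and their sum ran from 2087 to 2332 CPM against 1016 to 1057 CPM in vehicle. With PGE2, 6 of the 7 rose and 1 fell. Beside these and the counts below, 41.3% of all genes were called with AA (20.1% lower) and 58.9% with PGE2 (30.1% lower). Of the stem markers 4 of 5 fell with AA, to sums of 555 to 608 CPM, and 5 of 5 with PGE2, to 244 to 273 CPM. Goblet markers split with AA: 2 rose, among them Zg16 (1.88 ± 0.21), 3 fell, among them Tff3 (-0.63 ± 0.09), and 2 were not called (edgeR adjusted p = 8.5e-08 and 2.5e-05). Their median log2 fold change was 0.09, while their sum, 699 to 811 CPM, lay below the 1090 to 1147 CPM of vehicle. In the PGE2 libraries 6 of 7 goblet markers rose, among them Muc2, the main intestinal mucin, at 2.27 ± 0.19 (edgeR adjusted p = 1.9e-07), and their sum was 2275 to 2310 CPM. The 1 that fell was Spink4 (-0.34 ± 0.08, edgeR adjusted p = 0.00091), which is also counted among the Paneth products above. All 4 enteroendocrine markers fell with each treatment, to sums of 43.9 to 52.7 CPM with AA and 31.6 to 42.6 CPM with PGE2, against 121 to 139 CPM.

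With AA at day 6, 3 of 5 stem markers fell, among them Olfm4 (-0.50 ± 0.13), and Lgr5 rose (0.49 ± 0.10; edgeR adjusted p = 0.012 and 0.0026). Their sums overlapped, at 430 to 643 CPM with AA and 589 to 743 CPM with vehicle. In these libraries 5 of 7 enterocyte markers rose, 5 of 7 goblet markers rose and 1 fell, and 3 of 4 enteroendocrine markers fell. The share of all genes called at day 6 was 30.7%, and 15.5% were called lower.

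Genes were ranked by Pearson correlation of log2 CPM with the mean of the 7 centred genes over the 18 libraries of days 1 and 3. The 11941 genes ranked left out the 7 themselves and every other row whose symbol starts with Defa. Those whose levels followed the 7 most closely were Pdgfa, a platelet-derived growth factor (r = 0.938), Cux1, a homeobox factor (0.926), Usp22, a deubiquitinase (0.923), Cd24a (0.923), Ptprs, a receptor phosphatase (0.917), Rnase1, a secreted RNase (0.917), Ptprn2, a protein of dense-core granules (0.915), and AY761184 (0.914). The symbol of AY761184 does not start with Defa, so this row was neither left out of the ranking nor part of the summed Defa rows. Whether it shares reads with the Defa rows was not tested. Each of the 7 was also set against the mean of the other members, without itself. Defa24 followed that mean most closely (0.954) and Ang4 least (0.782). The 18 points share 6 groups, and the values are given as a description.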

How the data were processed

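The authors deposited whole-number read counts per gene of mouse intestinal organoid libraries in 2 tables, the first for days 1 and 3, the second for day 6. The submitters' processing notes list cutadapt, STAR, DESeq2 and limma 3.46 with no role, and GRCh38.p6, which is a human assembly, while the identifiers are those of mouse genes in Ensembl. No source used here gives the counting program, its strand setting or its handling of reads with several matches, so overlapping and near-identical genes may share or lose reads. Of 55385 identifiers, 55144 (99.6%) matched a gene name. All 26 libraries were assigned to groups by their labels.

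Testing used edgeR 4.0.16 (R 4.3.3) on the counts as deposited: filterByExpr, TMM scaling over the genes kept, and a robust quasi-likelihood fit with 1 mean per group. The 2 tables were fitted apart, 14850 genes in 18 libraries with 12 residual degrees of freedom and 14663 genes in the 8 libraries of day 6 with 6, and all 26 jointly (15504 genes) for the response at day 6 minus day 3. The 13 comparisons used Benjamini-Hochberg adjusted p over all genes tested, with a threshold of 0.05. "Rose" and "fell" mean past it, and SE is taken from the F statistic. The fits were repeated with all Defa rows summed. Scripts were tested on simulated data.

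The 7 genes and the 11 gene lists were chosen with earlier results of these data known. Besides the 7, genes were named by rule: the 4 other Defa rows with the highest CPM (Defa22, Defa26, Defa3 and Defa21), up to 4 called genes per list with the smallest p for AA against vehicle at day 3, a fixed panel, and the 8 genes most alike in pattern, among genes whose mean log2 CPM (prior count 2) was 1 or more. The ranking by pattern left out the 7 and all Defa rows. Lists covered other Paneth products, lineage regulators, niche signals, the secretory pathway, goblet, stem, enterocyte, enteroendocrine, immune, fibroblast and muscle, and endothelial and neural genes. The lists overlap: Spink4, for example, stands among both the other Paneth products and the goblet genes. Alternatives were other scalings, filters on low counts (none, or at least 1 CPM in every library of a group), removal of rRNA-like and mitochondrial genes, DESeq2 1.42.0, a replicate block, fits of only the groups compared, and leaving out each library. Transcript windows and identities used GENCODE vM21 and Biopython 1.88, and promoters came from RefSeq. Pairs of replicates all differed by more than counting noise would give (chi-square per degree of freedom 1.24 to 25.2 over 30 pairs).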

Additional observations from a re-analysis of the deposited data

Results flagged for a closer look

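The effect of AA differed between day 3 and day 1 by the test of the difference itself for all 7 genes. The differences of log2 fold changes were -0.75 for Lyz1, -0.99 for Mmp7, -0.45 for Itln1, -0.75 for Ang4, -1.15 for Defa17, -1.26 for Defa24 and -1.97 for Defa30, and -1.35 for the summed alpha-defensin counts. The effect of PGE2 differed between the same days for all 7, by -1.41 for Lyz1, -0.71 for Mmp7, -0.68 for Itln1, -1.44 for Ang4, -2.85 for Defa17, -2.55 for Defa24 and -3.52 for Defa30, and by -2.76 for the summed counts. Both sets share the vehicle libraries of those days. Between day 3 and day 6, which stand in separate tables, the effect of AA differed by 0.51 for Lyz1, 0.86 for Mmp7, 0.58 for Itln1 and 0.41 for the summed counts. The last call was lost without the low-count filter, without rRNA-like and mitochondrial genes, and with any of 10 of the 14 libraries left out.

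Vehicle day 6 replicate 2 stood apart for Defa17, at 485 CPM against 549 to 562 CPM in the other 3 libraries. This was 1 of 16 checks, each of 1 gene or the summed Defa rows in 1 group of 4 libraries. Chance sets a library apart in about 1 in 20 such checks, and these checks share the same libraries.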

How the results depend on the processing

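No value of the 7 genes or of the summed Defa rows changed sign with a call under any alternative run, and the rise of the 3 defensins with PGE2 at day 1 and every fall at days 3 and 6 passed under each of them. Counts of genes called stayed within 1.5 times. The fall of the summed Defa rows with AA at day 1 was not called without the low-count filter (-0.30), with a stricter filter (-0.28) or without rRNA-like and mitochondrial genes (-0.27), and leaving out each library gave -0.38 to -0.22. When the AA effect at day 6 was set against that at day 3, 5 of the 7 genes were called, in place of 3, with relative log expression factors, total counts, no filter, the stricter filter or DESeq2, and 3 to 5 when a library was left out. The main fit called 19.1% of all genes there. The summed rows then missed the threshold without the filter (0.43) and without rRNA-like and mitochondrial genes (0.39), and leaving out each library gave 0.33 to 0.54, with the call lost for 10 of the 14 libraries. The cause was not tested.

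Scaling by total counts alone moved the split of all genes called by over 10 percentage points in 7 of the 13 comparisons, and by at most 8.88 points in the other 6. For AA at day 3 it was 2459 higher and 3903 lower, against 3143 and 2986 with TMM, and for vehicle day 3 against day 1 it was 3726 and 2042, against 2943 and 3039. For PGE2 day 3 against day 1 it was 5124 and 2107, against 3638 and 3415, with the median of all genes shifted by 0.12 on the log2 scale. For AA against PGE2 at day 1 it was 2570 and 1746, against 1671 and 2448. For the differences of responses it was 986 and 1410 against 1487 and 1181 (AA, day 3 minus day 1), 2221 and 1277 against 1876 and 1716 (PGE2), and 1747 and 1020 against 1362 and 1607 (AA, day 6 minus day 3).

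Libraries with the same replicate number shared little: over 49 such pairs the correlation of deviations had a median of -0.0046, and 4 pairs were over 0.1, the largest at 0.16. Pairs with different numbers were not compared, so whether the numbers mark paired libraries is not settled. With the replicate block, Defa17 passed for AA at day 1 (-0.35, edgeR adjusted p = 0.015) and for the response at day 6 minus day 3 (0.38, adjusted p = 0.017), and no other call of the 7 genes changed. The low-count filter bears on the rare Defa rows: 11 of the 36 besides the 3 members were tested at days 1 and 3, and what kept the rest low was not tested.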
